A study of Homo sapiens with 16 samples.

Results

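The genes described here encode the granins and the enzymes that process prohormones inside dense-core secretory granules. They were taken from a fixed list of 10 genes by the gene symbol of the array's annotation. The list held the granins CHGA, CHGB, SCG2, SCG3, SCG5 and VGF and the processing genes PCSK1, PCSK2, CPE and PAM. Of these 10 genes, 8 had at least 1 probe set, 17 probe sets in all, among 18239 genes on the array. PCSK1 and PCSK2, the prohormone convertases that make the first cuts in a peptide precursor, were not analysed here. All 8 measured genes were bright enough to be tested among 13680 genes.

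Dense-core granules store peptides and catecholamines in neuroendocrine cells and release them when calcium enters the cell. Granins are acidic proteins that aggregate in the Golgi network, help to form the granule core and are themselves cut into peptides. In the granule, convertases cut precursors at pairs of basic residues, carboxypeptidase E (CPE) trims the basic residues left at the end, and peptidylglycine alpha-amidating monooxygenase (PAM) turns a terminal glycine into an amide. Chromogranin A, the product of CHGA, is widely used as a marker of neuroblastoma and other neuroendocrine tumours.

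The cells were SK-N-SH, an established human neuroblastoma line whose cultures hold neuroblast-like, adrenergic cells beside flat, mesenchymal cells. Total RNA was measured on Human Genome U219 arrays in 4 groups of 4 arrays each, namely untreated cells and cells kept in 10 µM risperidone for 6, 24 or 48 h. Risperidone is an antipsychotic that acts as an antagonist at dopamine and serotonin receptors. The labels call the controls untreated, while the protocol says that controls received DMSO, the solvent of the drug. No harvest time is given for the controls, so the same 4 arrays served all 3 exposure times, and time in culture cannot be told apart from exposure in the comparisons with them. The labels number the arrays of each group as biological replicates. Nothing says that these replicates came from separate cultures, so p-values measure only the spread between these samples. All values are log2 values per probe set as deposited, and a log2 difference of 1 is a doubling.

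Upstream sequence was available for 6 of the 8 measured genes, in RefSeq's GRCh38.p14 set, as the 250 bases before the annotated start. TGACGTCA, the palindrome known as the cAMP response element, was present in 2 of these 6 genes, CHGA and VGF, and in 1.65% of 35114 windows of the same length. The shorter TGACG, which the palindrome contains, was present in 4 of the 6 genes and in 21.2% of all windows. Of the other motifs searched, TGANTCA was in 0 of the 6 genes and 6.57% of windows, GGGCGG in 4 and 42.6%, and TATAAA in 1 and 10.7%. Both strands were searched. A gene was counted if any of its windows held the motif, and PAM had 3 windows, while the percentages are of single windows. A match is a run of letters and does not show that a factor binds there. The 4 windows with TGACG are shown for the places of the matches. They belong to CHGA, SCG5 and CPE, which were higher after risperidone, and to VGF, which was lower at 6 and 24 h. Of the genes whose windows lacked TGACG, SCG3 was higher and PAM lower, so both directions occurred with and without it. Capitals mark each match to TGACG on either strand.
The CHGA window is chr14:92922900-92923149 on the plus strand, and its palindrome starts 54 bases before the transcript start.
CHGA: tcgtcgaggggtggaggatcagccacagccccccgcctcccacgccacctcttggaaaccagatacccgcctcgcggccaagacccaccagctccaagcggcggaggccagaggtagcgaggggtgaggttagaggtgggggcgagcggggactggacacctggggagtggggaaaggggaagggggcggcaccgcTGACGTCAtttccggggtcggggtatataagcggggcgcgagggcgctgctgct
The VGF window is chr7:101165570-101165819 on the minus strand, and its palindrome starts 79 bases before the transcript start.
VGF: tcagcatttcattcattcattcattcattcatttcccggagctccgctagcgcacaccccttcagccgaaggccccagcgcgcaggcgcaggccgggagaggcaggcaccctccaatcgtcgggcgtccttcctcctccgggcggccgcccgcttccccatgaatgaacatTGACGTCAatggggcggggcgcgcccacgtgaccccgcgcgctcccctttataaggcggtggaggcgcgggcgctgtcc
The SCG5 window is chr15:32641460-32641709 on the plus strand, with a single match 17 bases before the start.
SCG5: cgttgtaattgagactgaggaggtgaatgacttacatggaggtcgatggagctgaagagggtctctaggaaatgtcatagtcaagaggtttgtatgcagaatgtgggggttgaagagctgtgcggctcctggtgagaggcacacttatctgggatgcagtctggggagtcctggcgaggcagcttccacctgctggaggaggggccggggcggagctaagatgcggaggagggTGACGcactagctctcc
The CPE window is chr4:165378758-165379007 on the plus strand, with matches 221 and 120 bases before the start.
CPE: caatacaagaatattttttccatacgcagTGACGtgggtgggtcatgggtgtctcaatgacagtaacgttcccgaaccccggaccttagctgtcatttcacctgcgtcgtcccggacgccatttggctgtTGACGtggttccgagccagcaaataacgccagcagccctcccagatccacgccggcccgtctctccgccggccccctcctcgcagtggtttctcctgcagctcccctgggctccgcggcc
CHGA and VGF, the genes with the full palindrome, differed from untreated in opposite directions at 6 and 24 h, as the values below give. SCG3 and PAM had none of TGACG in their windows. CHGB and SCG2 are not shown.

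The untreated arrays stood apart from the 12 treated arrays in the data as a whole. The leading principal component held 74.8% of the variance and placed untreated arrays between -50.0 and -46.3 and treated arrays between 12.1 and 20.2. Markers of the mesenchymal cells moved with this split: 12 of 12 tested markers fell at each exposure time. Of all tested genes, 16.7%, 16.9% and 21% fell at 6, 24 and 48 h. The mean log2 value of the 12 markers was 9.50 to 9.64 in untreated arrays, 6.30 to 6.74 at 6 h, 6.58 to 6.71 at 24 h and 6.39 to 6.59 at 48 h. Among them PRRX1, a mesenchymal transcription factor, averaged 3.98 at 6 h and 9.07 in untreated arrays. Of 10 tested adrenergic markers, 10 rose at 6 h, 9 at 24 h and 9 at 48 h. Of all tested genes, 36.6%, 35.3% and 36% rose at these times. The median log2 difference of the 10 markers was 0.32, 0.37 and 0.50, and that of all tested genes 0.0925, 0.0875 and 0.075. GATA2 (0.12, 0.12 and 0.10) and HAND2 (0.125, 0.13 and 0.13) lay near the latter. The mean of the 10 adrenergic markers was 10.15 to 10.22 in untreated arrays, 10.67 to 10.76 at 6 h, 10.74 to 10.77 at 24 h and 10.79 to 10.88 at 48 h. TH, the rate-limiting enzyme of catecholamine synthesis, averaged 5.18, 5.06 and 5.005 at 6, 24 and 48 h and 4.90 in untreated arrays, and was the marker that did not pass at 24 and 48 h (limma adjusted p = 0.0696 and 0.234). The part of these markers in the results on granule genes was not tested, and in RNA from a whole culture a smaller share of cells of a type and less RNA per cell cannot be told apart.

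Granin and processing genes split into a group that rose and a group that fell. CHGA, CHGB, SCG3, SCG5 and CPE were higher than in untreated arrays at all 3 times, SCG2 and PAM were lower at all 3 times, and VGF was lower at 6 and 24 h. At 6 h against untreated, 5 of the 8 genes were higher and 3 lower at an adjusted p under 0.05, where 36.6% of all tested genes were higher and 16.7% lower. At 24 h the counts were again 5 and 3, against 35.3% and 16.9% of all tested genes. At 48 h they were 5 and 2, against 36% and 21%. Scaling the arrays by cyclic loess moved the share of calls that were higher among all genes to 49.3%, 49.3% and 49.0% at 6, 24 and 48 h, against 68.7%, 67.6% and 63.1% as deposited, and turned the direction of none of the 8 genes. The median log2 difference of the 8 genes was 0.44, 0.50 and 0.63 at 6, 24 and 48 h, while that of all tested genes was 0.0925, 0.0875 and 0.075. A moderated F test over the 3 times passed for 8 of 8 genes, as for 66.7% of all tested genes. The tests were made with limma on all 16 arrays, with n = 4 in each group, and adjusted over all tested genes of a comparison. The 3 comparisons share the untreated arrays, so a gene's repeated direction over times is not independent evidence. Where arrays of 2 groups are said below not to overlap, the share of all tested genes with such a separation was not counted.

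**Figure D1:**
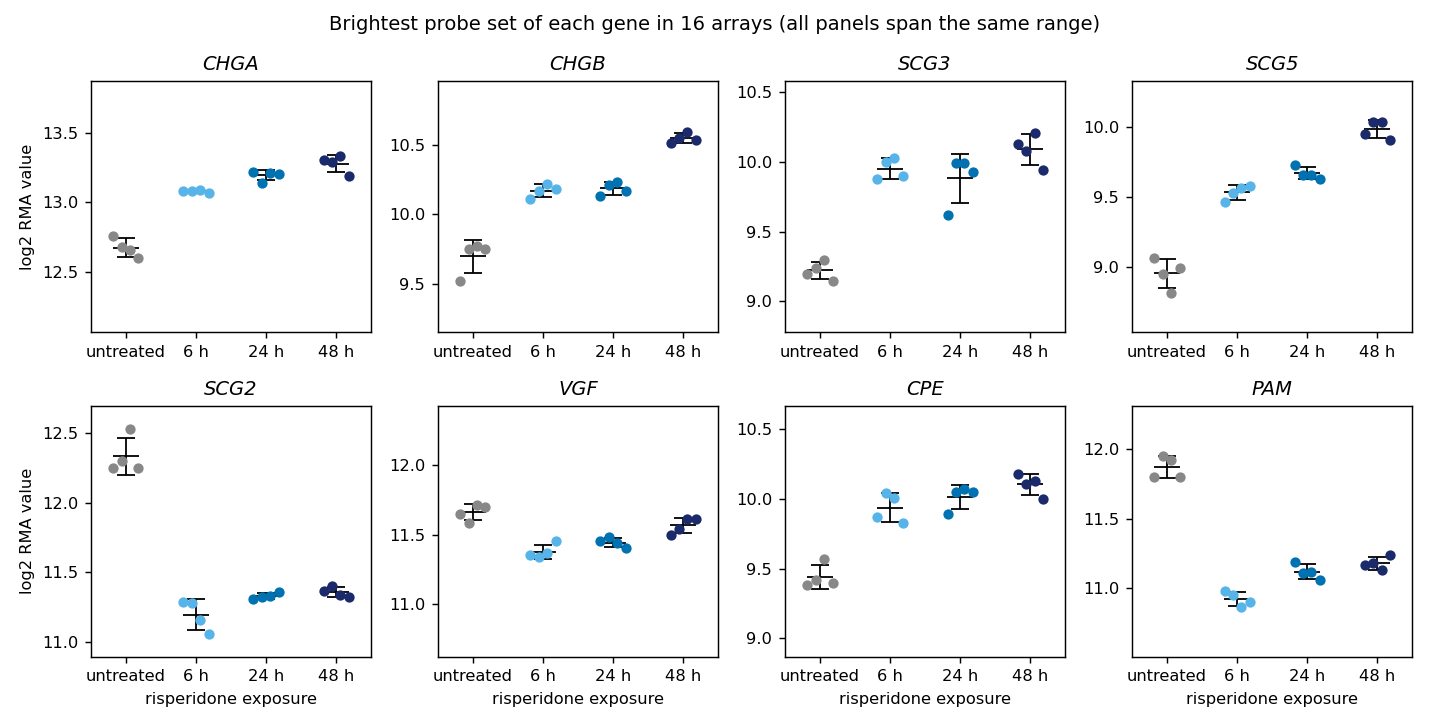
Log2 values (vertical axes) of the probe set with the highest mean for each of the 8 genes, 1 point per array, in untreated cells and after 6, 24 and 48 h of risperidone, with mean and SD bars of 4 arrays. CHGA, CHGB, SCG3, SCG5 and CPE lie above the untreated arrays at every time, SCG2 and PAM lie below them, and VGF at 48 h overlaps them.

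CHGA, chromogranin A, the granin used clinically as a neuroendocrine marker, was measured by 1 probe set. It read 12.76, 12.68, 12.66 and 12.60 in untreated arrays, 13.08, 13.08, 13.09 and 13.07 at 6 h, 13.22, 13.14, 13.21 and 13.20 at 24 h, and 13.30, 13.29, 13.33 and 13.19 at 48 h. Every treated array was above every untreated array. The log2 difference from untreated was 0.41 ± 0.04 at 6 h, 0.52 ± 0.04 at 24 h and 0.60 ± 0.04 at 48 h (limma SE, adjusted p = 7.3e-07, 3.36e-08 and 3.34e-09), the last being 1.52-fold. The group means were in the order untreated, 6 h, 24 h and 48 h. Of the neighbours in that order, 24 h and 6 h did not pass a test of their difference, and neither did 48 h and 24 h (limma adjusted p = 0.244 and 0.169).

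CHGB encodes chromogranin B, a granin that takes part in granule formation, and had 4 probe sets. The probe set with the highest mean read 9.52, 9.75, 9.77 and 9.75 in untreated arrays, 10.11, 10.17, 10.22 and 10.18 at 6 h, 10.13, 10.21, 10.23 and 10.17 at 24 h, and 10.51, 10.55, 10.59 and 10.53 at 48 h. The arrays at 48 h stood above all others, and those at 6 and 24 h overlapped each other while both stood above untreated. Log2 differences from untreated were 0.47 ± 0.05, 0.49 ± 0.05 and 0.85 ± 0.05 at 6, 24 and 48 h (limma adjusted p = 1.13e-06, 7.58e-07 and 4.84e-10), the last being 1.80-fold. The other 3 probe sets of CHGB were also higher at each time, by 0.53 to 0.71 at 6 h, 0.28 to 0.53 at 24 h and 0.76 to 1.01 at 48 h (limma over all probe sets, largest adjusted p = 0.0284). That largest p belonged to the probe set with the suffix _x_at, whose 24 h arrays (5.68, 5.53, 5.76 and 5.77) overlapped the untreated ones (5.26, 5.65, 5.31 and 5.40). By the maker's naming, this suffix marks probes that can match other transcripts. The second probe set of VGF, described below, bears the same suffix.

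SCG3, secretogranin III, is known to bind chromogranin A and the cholesterol-rich granule membrane. Its brightest probe set read 9.20, 9.24, 9.30 and 9.15 in untreated arrays, 9.88, 10.00, 10.03 and 9.90 at 6 h, 9.62, 9.99, 9.99 and 9.93 at 24 h, and 10.13, 10.08, 10.21 and 9.94 at 48 h. All treated arrays were above the untreated ones, and the 3 exposure times overlapped, with replicate 1 at 24 h below the rest of the treated arrays. Log2 differences from untreated were 0.73 ± 0.08, 0.66 ± 0.08 and 0.87 ± 0.08 at 6, 24 and 48 h (limma adjusted p = 5.31e-07, 1.73e-06 and 4.27e-08). The other 2 probe sets of SCG3 gave 0.75 and 0.71 at 6 h, 0.69 and 0.75 at 24 h, and 0.58 and 0.68 at 48 h, each without overlap of the arrays. The 3 probe sets thus shared their direction from untreated but not the order of the 3 times.

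SCG5 encodes the granin-like protein 7B2, a chaperone that binds the precursor of convertase 2 and is needed for its activation. Its single probe set read 9.06, 8.95, 8.81 and 8.99 in untreated arrays, 9.46, 9.53, 9.56 and 9.58 at 6 h, 9.73, 9.66, 9.66 and 9.63 at 24 h, and 9.95, 10.04, 10.04 and 9.91 at 48 h. No array of a later group was as low as any array of an earlier one. The log2 difference from untreated was 0.58 ± 0.05 at 6 h, 0.72 ± 0.05 at 24 h and 1.03 ± 0.05 at 48 h (limma adjusted p = 1.02e-07, 6.59e-09 and 4.12e-11). At 2.05-fold, the 48 h value was the largest rise among the 8 genes. In the order of its means, 24 h and 6 h were the neighbours whose difference did not pass (limma adjusted p = 0.244).

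SCG2 and VGF were the granins that fell. SCG2, secretogranin II, is the precursor of the peptide secretoneurin. Its single probe set read 12.25, 12.30, 12.53 and 12.25 in untreated arrays, 11.29, 11.28, 11.16 and 11.06 at 6 h, 11.31, 11.32, 11.33 and 11.36 at 24 h, and 11.37, 11.40, 11.34 and 11.32 at 48 h. All 12 treated arrays were below the untreated ones, with no overlap between 6 h and the later times and with overlap between 24 and 48 h. Log2 differences from untreated were -1.14 ± 0.06, -1.0025 ± 0.06 and -0.98 ± 0.06 at 6, 24 and 48 h (limma adjusted p = 1.11e-10, 6.4e-10 and 6.62e-10), the 6 h value being 2.20-fold lower. None of its differences between exposure times passed the test as deposited, with the exceptions under other settings given below for 48 h against 6 h.

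VGF is a nerve growth factor-inducible granin that is cut into several neuropeptides. Its brightest probe set read 11.65, 11.58, 11.71 and 11.70 in untreated arrays, 11.35, 11.34, 11.37 and 11.45 at 6 h, 11.45, 11.48, 11.44 and 11.40 at 24 h, and 11.50, 11.54, 11.61 and 11.61 at 48 h. The 6 and 24 h arrays were below untreated, and the 48 h arrays overlapped them. The log2 difference from untreated was -0.28 ± 0.04 at 6 h and -0.22 ± 0.04 at 24 h (limma adjusted p = 4.99e-05 and 0.000597). At 48 h it was -0.095 ± 0.04 (95% interval -0.19 to -0.0003; limma adjusted p = 0.0812), which did not pass. The value of VGF, 48 h against untreated, was -0.12 without untreated replicate 2 and then passed (limma adjusted p = 0.0361). The second probe set of VGF gave -0.28, -0.20 and -0.04 at 6, 24 and 48 h. VGF thus had the smallest differences from untreated among the 8 genes, at most 1.22-fold.

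The 2 processing enzymes measured moved in opposite directions. CPE removes the basic residues that convertases leave on a peptide. Its brightest probe set read 9.38, 9.42, 9.57 and 9.40 in untreated arrays, 9.87, 10.04, 10.01 and 9.83 at 6 h, 9.89, 10.05, 10.07 and 10.05 at 24 h, and 10.18, 10.11, 10.13 and 10.00 at 48 h. All treated arrays were above untreated, and each exposure time overlapped the next. Log2 differences from untreated were 0.50 ± 0.06, 0.57 ± 0.06 and 0.66 ± 0.06 at 6, 24 and 48 h (limma adjusted p = 4.13e-06, 7.38e-07 and 8.6e-08), the last being 1.58-fold. The second probe set of CPE gave 0.64, 0.63 and 0.74.

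PAM makes the amidated ends that many neuropeptides need for activity. Its brightest probe set read 11.80, 11.95, 11.92 and 11.80 in untreated arrays, 10.98, 10.95, 10.87 and 10.90 at 6 h, 11.19, 11.11, 11.12 and 11.06 at 24 h, and 11.17, 11.18, 11.13 and 11.24 at 48 h. All 12 treated arrays were below untreated, the 6 h arrays were the lowest, and the 24 and 48 h arrays overlapped. Log2 differences from untreated were -0.94 ± 0.05, -0.75 ± 0.05 and -0.69 ± 0.05 at 6, 24 and 48 h (limma adjusted p = 3.81e-11, 9.02e-10 and 1.96e-09), the 6 h value being 1.92-fold lower. The other 2 probe sets of PAM gave -1.18 and -1.22 at 6 h, -0.93 and -0.88 at 24 h, and -0.79 and -0.92 at 48 h. All 3 probe sets were thus lower at each time, with their largest difference at 6 h.

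Tested one by one over 45253 probe sets, 11 of the 17 probe sets of these genes were higher and 6 lower at 6 h, where 22% of all probe sets were higher and 11.7% lower. At 24 h, 11 were higher and 6 lower, against 21.2% and 12.2%. At 48 h, 11 were higher and 4 lower, against 23.5% and 14.9%, and the 2 that did not pass were those of VGF. Within each of the 5 genes with more than 1 probe set, all probe sets had the same sign at every time. Probe sets of a gene share its transcripts and are not independent measurements of the treatment.

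**Figure D2:**
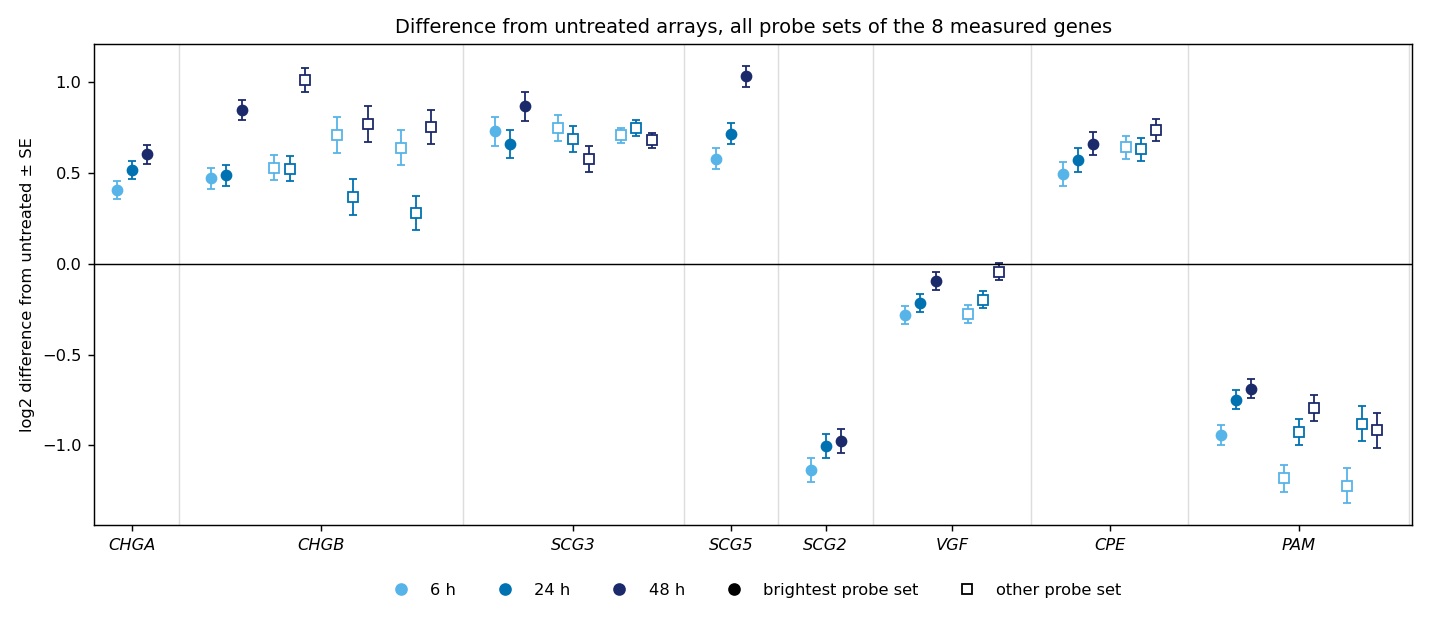
Log2 difference from untreated arrays (vertical axis) with limma standard errors for the 17 probe sets of the 8 genes, at 6, 24 and 48 h. Filled circles are the probe set with the highest mean and open squares the others. All probe sets of CHGA, CHGB, SCG3, SCG5 and CPE lie above 0, and all those of SCG2, VGF and PAM lie below it.

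Between exposure times, the differences in the brightest probe sets ran upward where they passed a test. In every gene but VGF they were smaller than that gene's differences from untreated. VGF differed by 0.19 at 48 h against 6 h and by -0.095 at 48 h against untreated. At 48 h against 6 h, 6 of the 8 genes were higher and 0 lower, where 16.7% of all tested genes were higher and 17% lower. With no adjustment of p, 7 were higher and 0 lower, but the share of all tested genes at that looser rule was not counted. All 8 differences were positive, with a median of 0.19, while the median of all tested genes was -0.005. SCG5 gained 0.45 ± 0.05, CHGB 0.38 ± 0.05, PAM 0.26 ± 0.05, CHGA 0.20 ± 0.04, VGF 0.19 ± 0.04 and CPE 0.17 ± 0.06 (limma adjusted p = 8.8e-06, 5.07e-05, 0.000653, 0.00237, 0.00387 and 0.0483). In SCG5 and CHGB the later arrays were thus farther from untreated, whereas in PAM and VGF, which were lower than untreated, they were nearer to it. SCG2, with 0.16 ± 0.06, and SCG3, with 0.14 ± 0.08, did not pass (limma adjusted p = 0.0602 and 0.191). The result for SCG2, 48 h against 6 h, passed under 8 alternatives (limma adjusted p = 0.0184 to 0.0494), 2 of which each left out a 6 h array. The other 2 probe sets of SCG3 gave -0.17 and -0.03 and did not pass (adjusted p = 0.111 and 0.717 over all probe sets). Of the 4 probe sets of CHGB, 2 differed by 0.07 and 0.12 and did not pass (adjusted p = 0.713 and 0.451 over all probe sets). The second probe set of CPE gave 0.095 and did not pass (limma adjusted p = 0.333 over all probe sets). The result for CPE, 48 h against 6 h, was lost without either of 2 of the 6 h arrays or any of 3 of the 48 h arrays (limma adjusted p = 0.0868 to 0.147). It was also lost with the mean of its probe sets, single probe sets, no dim filter, array medians subtracted, a fit of only the 8 arrays at issue and joint adjustment (limma adjusted p = 0.0606 to 0.0897), and with an adjusted p of 0.01 or a 1.5-fold minimum.

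The step from 24 to 48 h held most of the late change of CHGB and SCG5. Against 24 h, the 48 h arrays were higher by 0.36 ± 0.05 for CHGB and 0.32 ± 0.05 for SCG5 (limma adjusted p = 9.55e-05 and 0.000346), without overlap. These were the 2 genes of 8 called higher, with 0 lower, where 13.5% of all tested genes were higher and 15.1% lower. With no adjustment of p, 4 were higher and 0 lower, a rule for which the share of all tested genes was not counted. The additional 2 were SCG3, with 0.21 ± 0.08, and VGF, with 0.12 ± 0.04 (limma adjusted p = 0.0549 and 0.0502). In this step SCG3 passed under 9 alternatives and VGF under 7 (lowest limma adjusted p = 0.0212 and 0.0111). The second probe set of VGF was higher by 0.155, without overlap, and passed (limma adjusted p = 0.0327 over all probe sets). All 4 probe sets of CHGB were higher in this step, by 0.36 to 0.49 (largest adjusted p = 0.00768 over all probe sets). The other 2 probe sets of SCG3 gave -0.11 and -0.07, so its probe sets disagreed in sign here.

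Against 6 h, the 24 h arrays differed in 1 of the 8 genes, PAM, which was higher by 0.20 ± 0.05 (limma adjusted p = 0.0423). The background was 1.55% of tested genes higher and 0.855% lower, and 0 of the 8 genes were lower by limma, whether p was adjusted or not. With no adjustment, 3 were higher, and the share of all tested genes was not counted for that rule. The call for PAM was lost when every probe set was tested by itself (adjusted p = 0.0787 by limma) and without any of 7 of the 8 arrays compared (limma adjusted p = 0.053 to 0.142). The other 2 probe sets of PAM gave 0.26 and 0.34 (adjusted p = 0.0886 and 0.0913 over all probe sets). For CHGB, 2 of the other probe sets gave -0.34 and -0.36 (adjusted p = 0.106 and 0.0635 over all probe sets), while the brightest gave 0.015.

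**Figure D3:**
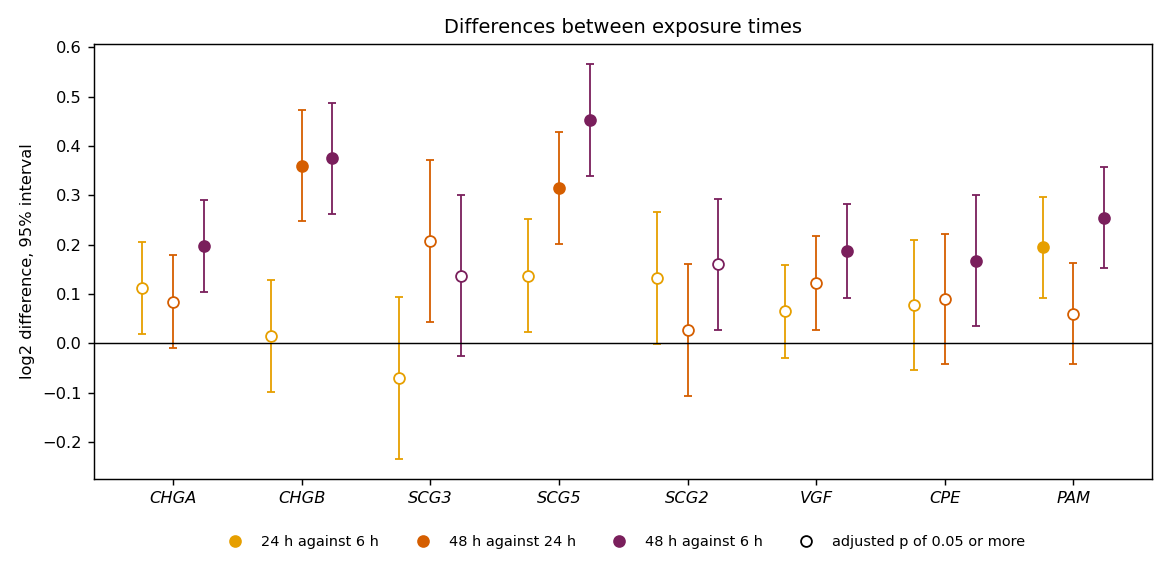
Log2 difference between exposure times (vertical axis) with 95% intervals for the 8 genes. Filled points passed an adjusted p of 0.05: PAM for 24 h against 6 h, CHGB and SCG5 for 48 h against 24 h, and 6 genes for 48 h against 6 h.

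SCG5 and SCG2, the genes with the largest rise and the largest fall at 48 h, were set beside every other tested gene by the distance between their 3 log2 differences from untreated. Nearest to SCG5 were SLC29A4, a monoamine transporter, PARD6B, a cell polarity protein, and LRRC24, at distances of 0.0375, 0.0392 and 0.056 log2 units. Nearest to SCG2 were S1PR1, a receptor for sphingosine phosphate, HHIPL2, and PDE5A, a cGMP phosphodiesterase, at 0.0372, 0.0376 and 0.0641. S1PR1 differed from untreated by -1.14, -0.97 and -0.96 at 6, 24 and 48 h, and SLC29A4 by 0.62, 0.72 and 1.02. The distances rest on 3 differences that share the untreated arrays and describe these profiles only.

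Among the other convertases and their inhibitor, PCSK6 rose by more at each time than any of the 8 genes did at that time. Of 6 tested, 4 rose and 0 fell at 6 h, 3 rose and 1 fell at 24 h, and 3 rose and 0 fell at 48 h, where 36.6%, 35.3% and 36% of all tested genes rose and 16.7%, 16.9% and 21% fell, with a median of 0.20, 0.12 and 0.09. After cyclic loess, 3 rose and 3 fell at 48 h, where 3706 of all 13680 tested genes rose and 3857 fell under that setting. PCSK6, a convertase of growth factor precursors outside the granule, rose by 1.01, 0.92 and 1.47 on the log2 scale at 6, 24 and 48 h (largest limma adjusted p = 3.7e-08). PCSK1N, which encodes proSAAS, an inhibitor of convertase 1, rose by 0.83, 0.83 and 0.47 (largest limma adjusted p = 1.91e-05). PCSK1N was thus lower at 48 h than at 6 h, by 0.37 (limma adjusted p = 0.000642). PCSK7, a convertase of the trans-Golgi network, rose by 0.15 at 6 h and 0.16 at 24 h (limma adjusted p = 0.0142 and 0.0107) and had -0.075 at 48 h (adjusted p = 0.193). FURIN, the convertase of the constitutive pathway, was the gene that fell at 24 h, by 0.33 (limma adjusted p = 0.0383), and is named after its value was seen. That call was lost when array medians were subtracted, with quantile normalization and without any of 3 untreated or 3 of the 24 h arrays.

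Among other enzymes that act on peptides, RNPEP, CTSL and AEBP1 fell at all 3 times. Of 13 tested, 4 rose and 6 fell at 6 h, 3 and 6 at 24 h, and 4 and 6 at 48 h, with a median of -0.15, -0.23 and -0.14. Of all tested genes, 36.6%, 35.3% and 36% rose and 16.7%, 16.9% and 21% fell. RNPEP, an aminopeptidase that removes basic residues, fell by 0.51, 0.47 and 0.65 on the log2 scale at 6, 24 and 48 h (largest limma adjusted p = 2.02e-07). The cathepsin CTSL, a lysosomal protease also reported in secretory vesicles, fell by 0.47, 0.43 and 0.40 (largest limma adjusted p = 3.84e-07). AEBP1, a carboxypeptidase-like protein of the extracellular matrix, fell by 0.48, 0.52 and 0.48 (largest limma adjusted p = 3.12e-06).

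Genes of the granule membrane and of release included the largest rises among the related genes named here. Of 22 tested, 12 rose and 5 fell at 6 h, 13 and 3 at 24 h, and 14 and 4 at 48 h, with a median of 0.14, 0.22 and 0.33. Rises also outnumbered falls among all tested genes, at 36.6% and 16.7%, 35.3% and 16.9%, and 36% and 21%. SLC18A1, the vesicular monoamine transporter of chromaffin cells, rose by 1.80, 1.92 and 1.87 on the log2 scale at 6, 24 and 48 h (largest limma adjusted p = 3.04e-14). DBH, the granule enzyme that makes noradrenaline, rose by 1.16, 1.34 and 1.74 (largest limma adjusted p = 1.77e-10), and it is also among the adrenergic markers. PTPRN2, a phosphatase-like protein of the granule membrane, rose by 0.81, 0.86 and 1.06 (largest limma adjusted p = 5.31e-10).

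Of 17 genes of granule biogenesis, 7 rose and 2 fell at 6 h, 6 and 1 at 24 h, and 7 and 2 at 48 h, with a median of 0.13, 0.11 and 0.14. These shares of rises lie near the 36.6%, 35.3% and 36% of all tested genes. SYP, the vesicle protein synaptophysin, rose by 1.09, 1.12 and 1.03 on the log2 scale (largest limma adjusted p = 8.1e-09). ICA1, a protein of immature granules, rose by 0.62, 0.81 and 1.12 (largest limma adjusted p = 2.4e-06). VPS51, a subunit of complexes that tether endosomal vesicles, rose by 0.38, 0.29 and 0.66 (largest limma adjusted p = 0.000417).

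Peptide precursors, the cargo on which the processing enzymes act, included the large fall of NTS. Of 32 listed, 31 had a probe set, 13 of these were too dim to be tested, and 18 were tested. Of the 18, 7 rose and 4 fell at 6 h, 8 and 2 at 24 h, and 6 and 2 at 48 h, with a median of 0.0875, 0.1525 and 0.095. Their shares of rises lie near those of all tested genes, 36.6%, 35.3% and 36%, where 16.7%, 16.9% and 21% fell. NTS, the precursor of neurotensin, averaged 6.995, 7.27 and 7.24 at 6, 24 and 48 h and 10.05 in untreated arrays, a log2 difference of -3.05, -2.78 and -2.81 (largest limma adjusted p = 3.17e-12). NMU, the precursor of neuromedin U, whose mature peptide is amidated, rose by 0.89, 0.81 and 0.82 (largest limma adjusted p = 3.52e-10). CALCB, the precursor of a calcitonin gene-related peptide, rose by 1.00, 1.13 and 0.21 (largest limma adjusted p = 0.0118), and was lower at 48 h than at 6 h by 0.79 (limma adjusted p = 2.15e-07).

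**Figure D4:**
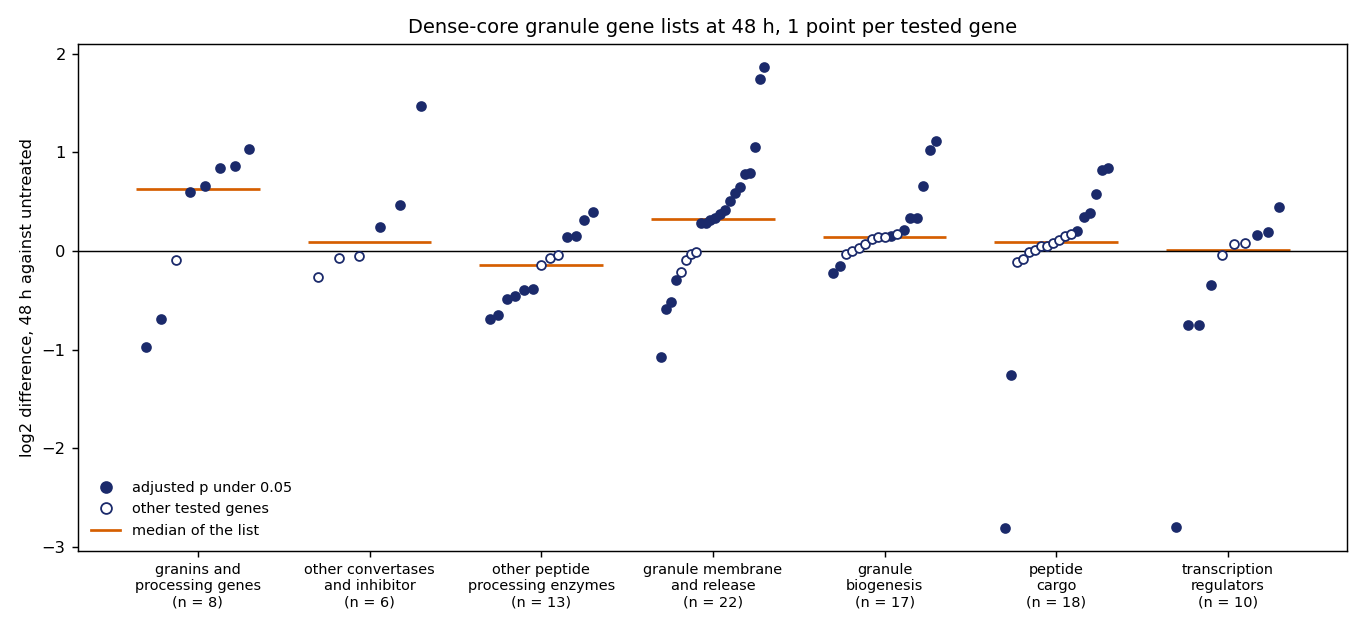
Log2 difference of 48 h against untreated arrays (vertical axis), 1 point per tested gene, for the 8 granin and processing genes and 6 lists of related genes, with filled points for an adjusted p under 0.05 and a line at each list's median. The granin and processing genes have a median of 0.63, and NTS and EGR1 lie lowest in their lists at -2.81 and -2.80.

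Transcription factors and co-activators reported to act on granin promoters, CREB family members and their partners among them, held a few large falls. Of 10 tested, 2 rose and 3 fell at 6 h, 0 and 4 at 24 h, and 3 and 4 at 48 h, with a median of 0.02, -0.01 and 0.01, where 36.6%, 35.3% and 36% of all tested genes rose and 16.7%, 16.9% and 21% fell. EGR1, an immediate early factor, fell by 1.13, 0.59 and 2.80 on the log2 scale at 6, 24 and 48 h (largest limma adjusted p = 0.000437), so its lowest level was at 48 h. JUN, a subunit of the factor AP-1, fell by 1.22, 1.24 and 0.75 (largest limma adjusted p = 1.78e-07). CRTC3, a co-activator of CREB, rose at 6 h by 0.15 and at 48 h by 0.44 (limma adjusted p = 0.0432 and 6.15e-06), and had 0.11 at 24 h (adjusted p = 0.134).

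Markers of other cell types were few and mostly dim. Of 5 immune markers with a probe set, 3 were too dim to be tested, CD3E did not pass at any time, and CD68, which lysosomes of many cells also carry, averaged 4.44, 4.47 and 4.42 at 6, 24 and 48 h and 5.94 in untreated arrays. Of 6 epithelial markers 3 were too dim, and EPCAM, CLDN4 and KRT19 did not pass at any time. Among them EPCAM averaged 4.20, 4.26 and 4.33 at 6, 24 and 48 h and 4.37 in untreated arrays. Among Schwann cell markers, 2 of 4 were too dim, and S100B, also expressed by other neural cells, rose by 0.61, 0.57 and 0.39 (largest limma adjusted p = 5.14e-06), while SOX10, the defining Schwann factor of the list, rose at 24 h and averaged 3.83, 4.02 and 3.88 at 6, 24 and 48 h and 3.75 in untreated arrays. Endothelial markers had 1 rise among 4 tested, KDR at 6 h with 0.21 (limma adjusted p = 0.0124). Of 5 markers of other endocrine cells, 4 were too dim and PAX6 did not pass. The mean of each of these lists stayed between 3.35 and 4.27 in all arrays. The difference between the 3 prime and 5 prime control probe sets of ACTB, a sign of RNA length, was 1.98 to 2.41 at 6 h, 1.94 to 2.16 at 24 h and 1.76 to 2.15 at 48 h, and 1.55 to 1.94 in untreated arrays. The exact two-sided permutation p against untreated was 0.0286, 0.0571 and 0.429 (adjusted 0.171, 0.171 and 0.551 over 9 tests), with 0.0286 the smallest that 4 against 4 arrays allow. That of GAPDH was 0.07 to 0.18 in all arrays. The part of RNA length in the results above was not tested.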

How the data were processed

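The deposited values are log2 values per probe set, made by the authors with RMA per the submitters' processing notes; the software version is not given in the sources used here. RMA corrects background, equalises distributions between arrays and summarises probes, so a change in total RNA per cell cannot be seen. Of 49386 probe sets, 45253 had a single gene symbol; 45172 matched the RefSeq table by Entrez identifier, which changed 0 symbols. For each gene the probe set brightest on average was used, and the lowest 25% of genes were left out, leaving 13680 with a mean of at least 3.65. Array medians were 4.5 to 4.62, and 4 arrays per group limit the precision.

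Groups came from the labels. The tests used limma 3.58.1 under R 4.3.3 (a mean per group, 16 arrays, two-sided, Benjamini-Hochberg within each comparison, threshold 0.05), after the procedure had been tested on simulated data. Values after ± are standard errors. Named from each list of related genes were the 3 with the smallest F test p, while single cell type markers were named after their values were seen; likeness took the 3 nearest genes. The members, lists and tests were chosen with earlier results of these data known. Alternatives were averaging all probe sets per gene, single probe sets, no dim filter or one of 50%, array medians subtracted, quantile or cyclic loess normalization, trend and robust eBayes, weighting of arrays, a replicate block, a fit of only the 8 arrays at issue, joint adjustment, an adjusted p of 0.01, a minimum of 1.5-fold and each array left out. Sequences are from RefSeq.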

Additional observations from a re-analysis of the deposited data

Results flagged for a closer look

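In 3 of 32 combinations of gene and group, 1 array lay apart from the other 3; chance alone gives about 1 in 20. CHGB in untreated replicate 1 read 9.52, with the nearest array at 9.75, a gap of 0.92 of the group's range. Without that array, the log2 difference of CHGB from untreated was 0.41, 0.43 and 0.79 at 6, 24 and 48 h. SCG3 at 24 h in replicate 1 read 9.62, with the nearest at 9.93 (0.838 of the range). CPE in the same array read 9.89, with the nearest at 10.05 (0.889 of the range). Without that array, the 24 h difference from untreated was 0.75 for SCG3 and 0.61 for CPE.

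The differences from untreated also changed between exposure times, by a test of the difference between times (limma, adjusted p under 0.05). At 48 h against 6 h these were CHGA (0.1975), CHGB (0.375), SCG5 (0.4525), VGF (0.1875), CPE (0.1675) and PAM (0.255). At 48 h against 24 h they were CHGB (0.36) and SCG5 (0.315). At 24 h against 6 h it was PAM (0.195).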

How the results depend on the processing

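No difference from untreated changed sign in any of the 8 genes under any alternative. With a minimum change of 1.5-fold, the counts of higher genes were 0, 0 and 3 at 6, 24 and 48 h against untreated, 1 gene was lower at 48 h, and 0 were higher in each comparison between times; CHGB, SCG3 and SCG5 passed at 48 h. The count of 1 higher at 24 h against 6 h was 0 with single probe sets, no dim filter, an adjusted p of 0.01 and the replicate block, and 0 to 1 with an array left out. The count of 2 higher at 48 h against 24 h was 4 with the 50% filter, quantile normalization, cyclic loess and trend and robust eBayes, 5 with array weights, and 2 to 3 with an array left out. Calls in either direction among all genes for that comparison were 3907 in the main fit and 5031 with array weights. They were 3894 with the 50% filter, 4159 with quantile normalization, 4133 with cyclic loess and 4160 with trend and robust eBayes. With an array left out, 5 to 7 were higher at 48 h against 6 h and 2 to 3 lower at 48 h against untreated. Small differences between times changed sign: CHGB at 24 h against 6 h was -0.17 with the mean of its probe sets and -0.005 to 0.033 with an array left out (negative without replicate 1 at 6 h), and SCG3 was -0.11 to 0.0175 at 24 h against 6 h with an array left out (positive without replicate 1 at 24 h) and -0.0192 at 48 h against 6 h with the mean of its probe sets. The causes were not tested. Same-numbered arrays correlated at -0.15 to 0.18 in their deviations (24 pairs, 8 above 0.1, median 0.05). Other-numbered arrays gave -0.29 to 0.26 (72 pairs, 15 above 0.1, median -0.02). These overlapping ranges do not settle whether the numbers mark pairs, and the main fit did not pair them. With the replicate block, PAM at 24 h against 6 h had an adjusted p of 0.0671 (limma). SCG3, 48 h against 24 h, then had one of 0.0288 (limma), and no other call of the 8 genes changed. VGF at 48 h against untreated passed without untreated replicate 2, as given above, and under 2 other settings. Cyclic loess was among these (-0.14, limma adjusted p = 0.0162). Subtracting array medians moved the median of all genes at 6 h to 0.12. Among all genes, 329 were called at 24 h against 6 h, 839 with array weights, 818 with joint adjustment and 113 at an adjusted p of 0.01. For the same comparison, 276 were called with single probe sets, 293 with no dim filter and 327 with the replicate block. At an adjusted p of 0.01, 2439 rather than 3907 were called at 48 h against 24 h and 2997 rather than 4598 at 48 h against 6 h. With the 1.5-fold minimum, 864, 889 and 1193 were called at 6, 24 and 48 h against untreated, rather than 7291, 7134 and 7794, and 1, 28 and 60 at 24 h against 6 h, 48 h against 24 h and 48 h against 6 h. Among counts for the lists of related genes, 1348 of 1584 were within 1.5 times of the main count.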
